A study of Homo sapiens with 18 samples.

Results

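The genes described here belong to the ATF4-CHOP branch of the integrated stress response. They are 10 of the 55765 genes counted, chosen by symbol: ATF4, DDIT3 (which encodes CHOP), CEBPB, TRIB3, PPP1R15A (which encodes GADD34), SESN2, DDIT4 (which encodes REDD1), CHAC1, ASNS and VLDLR. All 10 were present in both count tables and all 10 passed the filter on low counts in both.

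In the integrated stress response, kinases that sense unfolded protein, amino acid shortage, double-stranded RNA or haem shortage phosphorylate the translation factor eIF2alpha. Protein synthesis then slows, while the messenger RNA of the transcription factor ATF4 is translated more, so that ATF4 protein can rise with little change in its transcript. ATF4 and its partners switch on genes of amino acid supply and, when the stress lasts, CHOP, a factor linked to cell death, and GADD34, which brings the phosphatase back to eIF2alpha and ends the response.

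OVCAR3 is a high-grade serous ovarian cancer cell line that carries the polymeric immunoglobulin receptor, which takes up IgA and moves it through the cell. The cells grew in RPMI with 2% FBS and received 0.5 μg/ml of antibody, or none, for 24 h as the labels give it, although the study's own text is not uniform on this time. The first series compared non-antigen-specific human IgA, non-antigen-specific IgG and no antibody; the second compared IgA against BDNF, a neurotrophin, IgA against TSPAN7, a membrane protein of the tetraspanin family, and no antibody. Each of the 6 groups had 3 libraries, 18 in all, from 1 cell line. The study's text calls the replicates of the first series experiments, but no label says how cultures map to libraries and no such word is given for the second series, so p-values measure the spread between these libraries, part of which may be technical. Counts of the 2 series come in separate tables, each with its own untreated cells, and values were compared only within a series.

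Libraries held 27920733 to 47381836 counts. All 10 serous and epithelial markers were counted in every library, from ESR1 with at least 216 counts and WT1 with at least 692 to PAX8 with at least 16861 and MUC16 with at least 27646. Of markers of other cell types, CD3E had at most 2 counts, CD79A 11, DCN 16, CDH5 40, CD14 45, PTPRC 56 and VWF 57. COL1A1 reached 1065 and COL1A2 3160 counts. Against IgG, non-antigen-specific IgA libraries had less WT1 and KRT8 and more PAX8 and KRT7, with log2 fold changes of -1.17, -0.37, 0.34 and 0.43 (edgeR, adjusted p = 0.00348, 0.0304, 0.0441 and 0.00539). In the second series, 4 of these 10 markers were called higher and 0 lower with BDNF IgA, where 4.49% and 3.18% of all genes were. With TSPAN7 IgA 1 was higher and 2 lower, where 4.46% and 4.08% of all genes were. From BDNF to TSPAN7 IgA 1 was higher and 4 lower, where 3.42% and 4.5% of all genes were. The level of 9 leukocyte, fibroblast and endothelial markers was summed in TMM-scaled CPM, which are counts scaled by the effective library size after TMM. The sum was 71.4 to 139 with IgA, 60.6 to 67.2 with IgG and 64.8 to 72.4 in untreated cells of that series. Nearly all of it came from the collagen genes COL1A1 and COL1A2, and the part of this in the values below was not tested. Of the 6 markers of this list that passed the filter, 2 were called higher with IgA against IgG and 1 against untreated cells. Of all genes, 12.6% and 12.9% were called higher there. IgA replicate 3 stood apart, with 19.1% of its counts from mitochondrial genes where the other 8 libraries of that series had 5.75% to 8.32%. In RNA from a whole culture, fewer cells expressing a gene and less of its RNA per cell cannot be told apart.

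The sequence in front of 4 of the genes is shown because the results below turn on these genes. CHAC1 and ASNS hold an exact match to 1 stress element, PPP1R15A to another and DDIT3 to neither of these. The windows are the 250 bases before the transcription start in RefSeq on GRCh38.p14, a later build than the GRCh37 used for the counts, written 5′ to 3′ on the strand of the gene. CHAC1 lies at chr15:40953221-40953470 on the plus strand, ASNS at chr7:97872409-97872658 on the minus strand, PPP1R15A at chr19:48872171-48872420 on the plus strand and DDIT3 at chr12:57520515-57520764 on the minus strand. Capitals mark a match to a C/EBP-ATF response element (TGATGNAA), to which ATF4 binds with a C/EBP partner, or to a cAMP response element (TGACGTCA), on either strand.
CHAC1: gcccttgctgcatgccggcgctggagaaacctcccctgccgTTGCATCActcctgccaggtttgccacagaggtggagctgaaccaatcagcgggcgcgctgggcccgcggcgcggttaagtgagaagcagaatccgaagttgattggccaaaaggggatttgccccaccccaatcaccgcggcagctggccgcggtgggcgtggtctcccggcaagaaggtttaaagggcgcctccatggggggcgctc
ASNS: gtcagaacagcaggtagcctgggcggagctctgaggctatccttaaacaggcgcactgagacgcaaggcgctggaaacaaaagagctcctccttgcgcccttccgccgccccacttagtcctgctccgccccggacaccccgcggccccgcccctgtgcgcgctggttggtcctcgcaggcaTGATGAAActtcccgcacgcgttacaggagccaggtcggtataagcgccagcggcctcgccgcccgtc
PPP1R15A: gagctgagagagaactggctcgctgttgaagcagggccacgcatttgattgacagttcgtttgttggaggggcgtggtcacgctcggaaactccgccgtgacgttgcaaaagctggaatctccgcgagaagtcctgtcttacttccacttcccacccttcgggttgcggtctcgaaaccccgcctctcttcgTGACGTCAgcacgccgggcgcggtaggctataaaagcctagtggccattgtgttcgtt
DDIT3: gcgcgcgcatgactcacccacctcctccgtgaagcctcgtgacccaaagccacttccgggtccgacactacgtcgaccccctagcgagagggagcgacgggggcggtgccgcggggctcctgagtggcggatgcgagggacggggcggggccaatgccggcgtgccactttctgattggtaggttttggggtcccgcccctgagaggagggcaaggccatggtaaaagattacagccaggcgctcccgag

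The C/EBP-ATF letters were found in the windows of 2 of the 10 genes, CHAC1, on the opposite strand, and ASNS, where 3.19% of 27305 RefSeq promoter windows hold them. The cAMP response element was found in PPP1R15A alone of the 10, against 1.77% of all windows. The ER stress response element (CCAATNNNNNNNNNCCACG), to which ATF6 binds, was found in none of the 10 windows and in 0.0806% of all. A match is only a run of letters, and elements of these genes that lie outside the 250 bases were not searched. Only exact letters were counted, so a window without a match may still hold a variant of an element. The DDIT3 window holds ccaatgccggcgtgccact, which departs from the ER stress letters in its last base and was not counted.

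Non-antigen-specific IgA raised 4 of the 10 genes against IgG and the same 4 against untreated cells: DDIT3, PPP1R15A, DDIT4 and TRIB3. None of the 10 was called lower in either comparison, and ATF4, ASNS, CHAC1, SESN2, CEBPB and VLDLR were not called. Of all 18012 genes tested, 12.6% were called higher and 11.6% lower against IgG, and 12.9% and 12.1% against untreated cells. The IgA libraries lay wholly above IgG for 3 of the 10 and wholly under it for 1, and above untreated cells for 4 and under them for 2, where 19.7%, 20.6%, 19.8% and 20.1% of all genes did so. The comparisons share the IgA libraries, so one is not a repeat of the other. Between IgG and untreated cells none of the 10 was called and none was free of overlap (3.32% and 3.43% of all genes lay wholly above and below). There edgeR called 0% of all genes, with 89 genes at an unadjusted p under 0.05. That is far less than the share of 0.05 of the 18012 genes that no difference at all would give. The test was thus strict between these groups, and the lack of calls does not show them to be alike. The log2 fold changes of the 10 in that comparison ran from -0.09 for CHAC1 to 0.23 for TRIB3.

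**Figure D1:**
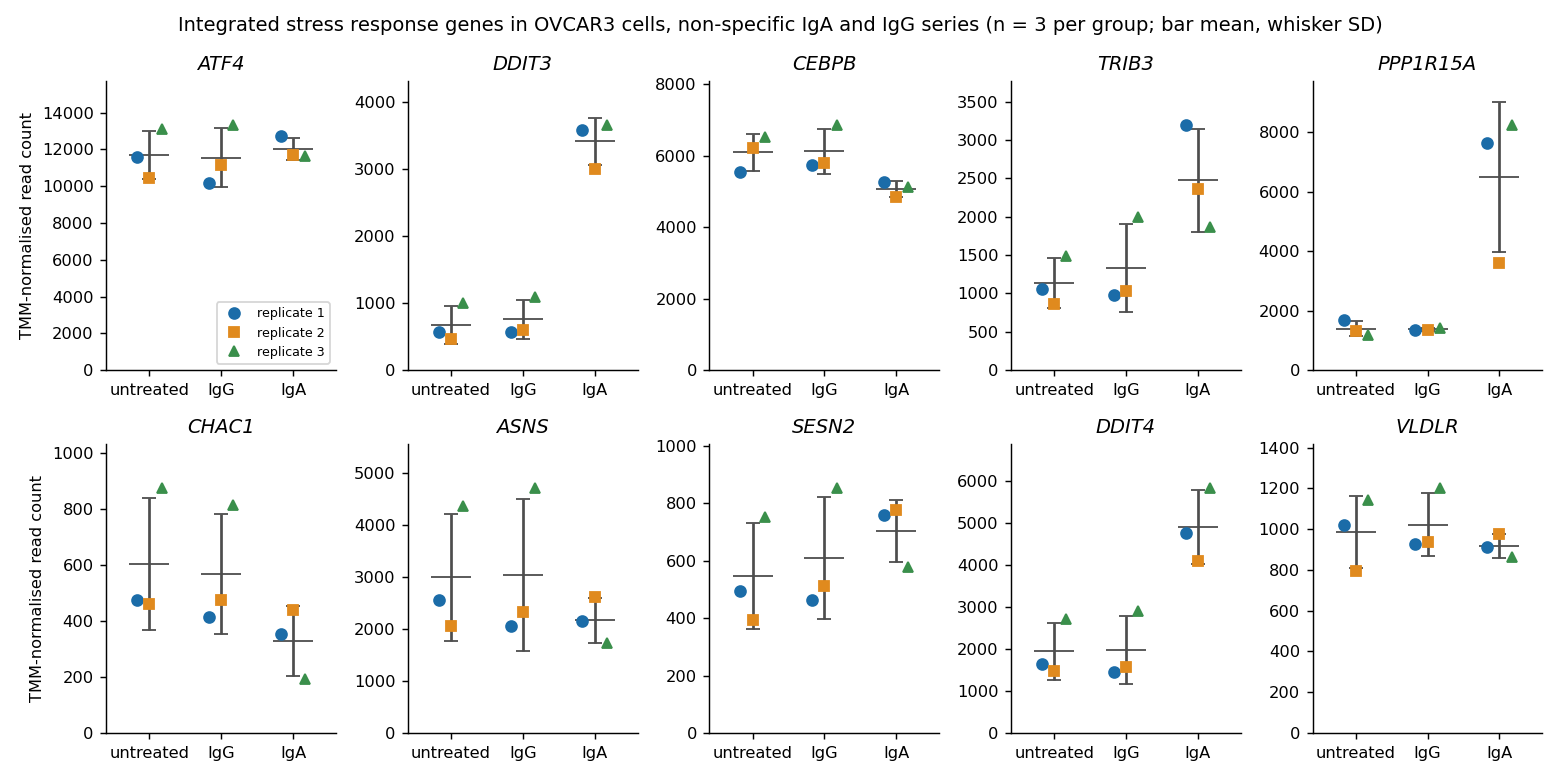
TMM-normalised read counts of the 10 genes (vertical axes, from 0) in the 9 libraries of the first series, untreated, IgG and IgA on the horizontal axis; symbols stand for replicates 1 to 3, bars for the mean and whiskers for the SD. DDIT3, PPP1R15A and DDIT4 lie higher in all 3 IgA libraries than in any other library, while replicate 3 of IgG and of untreated cells is the highest of its group for ASNS, CHAC1 and SESN2.

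DDIT3, at chr12:57910371-57915520 on GRCh37, had the largest log2 fold change of the 10 against untreated cells. Its normalised read counts, scaled to a common library size, were 3585, 3009.9 and 3660.1 with IgA, 573, 607 and 1097 with IgG and 568, 464 and 999 in untreated cells, in the order of replicates 1, 2 and 3. All 3 IgA libraries lay above all 6 others. On the log2 scale the fold change was 2.17 ± 0.28 (SE) against IgG and 2.33 ± 0.28 against untreated cells, or 4.51-fold and 5.04-fold (edgeR, adjusted p = 0.000201 and 0.000119). DDIT3 overlaps MARS1 and MBD6 on the other strand, and no source used here says that reads were counted by strand, so some may be shared there. In GENCODE 44 it also overlaps a protein-coding gene on its own strand, ENSG00000285133, over 2769 bases, which counting by strand would not part from it.

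PPP1R15A, at chr19:49375469-49379316, encodes the inducible subunit that directs protein phosphatase 1 to eIF2alpha. Its normalised read counts were 7648, 3618 and 8247 with IgA, 1366, 1339 and 1413 with IgG and 1693, 1320.0 and 1193 in untreated cells. The groups did not overlap, and IgA replicate 2 lay well under the other IgA libraries. The fitted log2 fold change was 2.24 ± 0.24 against IgG and 2.21 ± 0.24 against untreated cells (edgeR, adjusted p = 6.38e-05 and 6.23e-05). PPP1R15B, the constitutive partner of the same phosphatase, was not called, with log2 fold changes of -0.15 ± 0.11 and -0.06 ± 0.11.

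DDIT4, at chr10:74033678-74035794, encodes REDD1, a brake on the growth kinase complex mTORC1. Normalised read counts were 4763, 4101 and 5845 with IgA, 1452, 1568 and 2899 with IgG and 1651, 1473 and 2719.8 in untreated cells. Again every IgA library was above every control library. The log2 fold change was 1.31 ± 0.27 against IgG and 1.33 ± 0.27 against untreated cells (edgeR, adjusted p = 0.00392 and 0.0034).

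TRIB3, at chr20:343479-378203, encodes a pseudokinase that is induced by CHOP and ATF4 and dampens their activity. Its normalised read counts were 3194, 2367 and 1867 with IgA, 978, 1033 and 1999 with IgG and 1057, 863 and 1489 in untreated cells. The IgA libraries lay above all untreated ones, but IgG replicate 3 was above IgA replicate 3. On the log2 scale the fold change was 0.89 ± 0.28 against IgG and 1.12 ± 0.28 against untreated cells (edgeR, adjusted p = 0.032 and 0.0107). The call was the least secure of the 4: without IgA replicate 1 the adjusted p was 0.136 against IgG and 0.0527 against untreated cells, without IgG replicate 1 or 2 it was 0.118 and 0.13 against IgG, and without untreated replicate 2 it was 0.0529 against untreated cells.

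ATF4, at chr22:39915700-39918688, was the most abundant of the 10 per length of transcript, and its level hardly differed between groups. Normalised read counts were 12737, 11697 and 11667 with IgA, 10202, 11154 and 13322 with IgG and 11577, 10436 and 13085 in untreated cells. The groups overlapped. The fitted log2 fold change was 0.06 ± 0.12 against IgG, with a 95% interval of -0.17 to 0.29, and 0.04 ± 0.12 against untreated cells, with an interval of -0.19 to 0.27.

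ASNS and CHAC1 are textbook ATF4 targets, and both hold the C/EBP-ATF letters in the windows shown above. ASNS, at chr7:97480989-97501854, encodes asparagine synthetase, and its normalised read counts were 2154, 2604 and 1729.7 with IgA, 2063, 2315 and 4708 with IgG and 2550.0, 2049.8 and 4367 in untreated cells. CHAC1, at chr15:41245160-41248710, encodes an enzyme that degrades glutathione, and its counts were 354, 439.7 and 191 with IgA, 414, 473 and 813 with IgG and 474, 459 and 875 in untreated cells. Neither gene was called: the log2 fold change of ASNS was -0.48 ± 0.31 against IgG and -0.47 ± 0.31 against untreated cells (edgeR, adjusted p = 0.274 and 0.294), and that of CHAC1 was -0.77 ± 0.33 and -0.87 ± 0.33 (adjusted p = 0.105 and 0.0719). For CHAC1 the IgA libraries all lay under the untreated ones, and for ASNS the groups overlapped. In GENCODE 44 a long non-coding RNA gene, ENSG00000284707, covers 20855 bases of ASNS on the same strand, and whether reads were shared there was not tested. Without IgA replicate 2 CHAC1 was called lower against untreated cells, with an adjusted p of 0.0383, and under library size scaling, with 0.0405. Without a filter on low counts both genes were called lower against IgG and untreated cells, ASNS with adjusted p = 0.00101 and 0.00154 and CHAC1 with 0.000154 and 1.32e-05. With replicates 1 and 2 alone the log2 fold change of ASNS turned to 0.12 and 0.04.

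SESN2, at chr1:28586029-28609002, encodes sestrin 2, a leucine sensor that restrains mTORC1. Its normalised read counts were 759, 775 and 579.7 with IgA, 464, 512 and 854 with IgG and 496, 393 and 753 in untreated cells. Replicate 3 was the lowest with IgA and the highest in both control groups, and the groups overlapped. The log2 fold change was 0.21 ± 0.25 against IgG and 0.37 ± 0.26 against untreated cells (edgeR, adjusted p = 0.58 and 0.32). With replicates 1 and 2 alone SESN2 was called higher with IgA, at 0.65 and 0.78 (adjusted p = 0.0115 and 0.0045).

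CEBPB, at chr20:48807367-48809205, encodes a leucine zipper factor that pairs with ATF4 and CHOP. Its normalised read counts were 5275, 4831 and 5124 with IgA, 5726, 5798 and 6854 with IgG and 5534, 6218 and 6527 in untreated cells. All IgA libraries lay under all controls, yet the difference was small and not called, with log2 fold changes of -0.27 ± 0.10 and -0.26 ± 0.10 (edgeR, adjusted p = 0.0736 and 0.0801). Under library size scaling it was called lower in both, at -0.51 and -0.47 (adjusted p = 0.00872 and 0.0127). VLDLR, at chr9:2621182-2660056, encodes a lipoprotein receptor, and its counts were 910.4, 977 and 861 with IgA, 925, 939 and 1202 with IgG and 1021, 792 and 1142 in untreated cells. These groups overlapped, with log2 fold changes of -0.16 ± 0.15 and -0.10 ± 0.15.

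**Figure D2:**
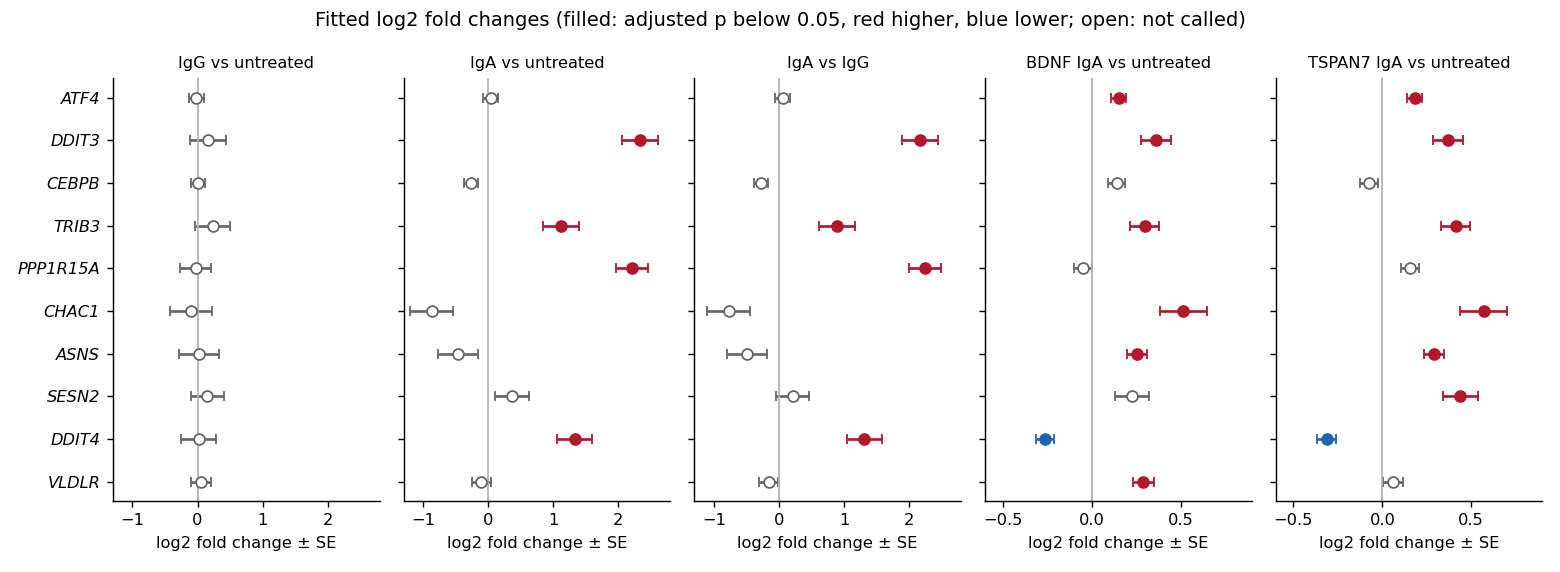
Fitted log2 fold changes of the 10 genes (horizontal axes, with SE as bars) in 5 comparisons; filled points are called at an adjusted p under 0.05, red for higher and blue for lower, and the last pair of panels has a narrower scale. With non-antigen-specific IgA 4 genes reach 0.89 to 2.33 and the rest are open, while with antigen-specific IgA 6 genes sit between 0.15 and 0.57 and DDIT4 lies under 0.

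Per length, the order of the genes changed with IgA. In untreated cells of the first series ATF4 had 234 ± 26.6 TMM-scaled CPM per kilobase of transcript (SD, n = 3), followed by CEBPB with 94 ± 7.84, ASNS with 35.6 ± 14.5, DDIT4 with 31.6 ± 10.9 and DDIT3 with 21.3 ± 8.91. With IgA, DDIT3 was second with 107 ± 11.2, ahead of DDIT4 with 79.6 ± 14.3, PPP1R15A with 78.5 ± 30.4 and CEBPB with 78.3 ± 3.49, and ASNS was seventh with 25.7 ± 5.2. In the untreated cells ASNS, DDIT4 and DDIT3 overlapped, and with IgA DDIT4, PPP1R15A and CEBPB did. The lowest IgA library for DDIT3, at 94.6, also lay just under the highest for DDIT4 and PPP1R15A, at 94.9 and 99.6. CHAC1, SESN2 and VLDLR held the last 3 places in all 3 groups, with 3.03 ± 0.547 for VLDLR in untreated cells.

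The controls themselves varied in these genes. In IgG all 10 genes were highest in replicate 3, and in untreated cells 9 of 10, with PPP1R15A lowest there, where replicate 3 was the highest for 38.9% and 35.5% of all genes. In both groups 6 genes, ASNS, CHAC1, DDIT3, TRIB3, SESN2 and DDIT4, stood at 1.5 times or more of the mean of replicates 1 and 2, where 2.66% of 13515 genes with a mean of at least 50 normalised counts did so in IgG and 2.18% in untreated cells. ASNS reached 2.15 times in IgG and 1.9 times in untreated cells, and DDIT3 1.86 and 1.94 times. In IgA replicate 3 none of the 10 did so, against 9.93% of all genes, and ASNS and CHAC1 there were at 0.727 and 0.481 times. In the second series none of the 10 genes reached 1.5 times, and only 0.362% to 0.632% of all genes did in any group.

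Ratios of read counts within a library do not depend on how libraries are scaled, and with IgA they set DDIT3 apart from ASNS and CHAC1. Per library, DDIT3 had 1.66, 1.16 and 2.12 counts for each count of ASNS with IgA, 0.278, 0.262 and 0.233 with IgG and 0.223, 0.226 and 0.229 in untreated cells. Replicate 3 of both control groups, where DDIT3 and ASNS were each high, kept nearly the same ratio as replicates 1 and 2. The IgA ratio was 6.21-fold that of IgG and 7.07-fold that of untreated cells, with no overlap (two-sided exact permutation p = 0.1, the smallest that 3 against 3 libraries allow, and 0.18 adjusted over 36 tests). The IgG and untreated libraries did not overlap either in DDIT3:ASNS, DDIT3:CHAC1 and TRIB3:ASNS, with the same p and adjusted p, and the ratios differed there by 1.14-, 1.2- and 1.15-fold. For each count of CHAC1, DDIT3 had 10.1, 6.85 and 19.1 counts with IgA and between 1.01 and 1.38 in the 6 control libraries. TRIB3 had 1.48, 0.909 and 1.08 counts for each of ASNS with IgA, against 0.341 to 0.474 in the controls. These ratios were chosen after the values had been seen.

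**Figure D3:**
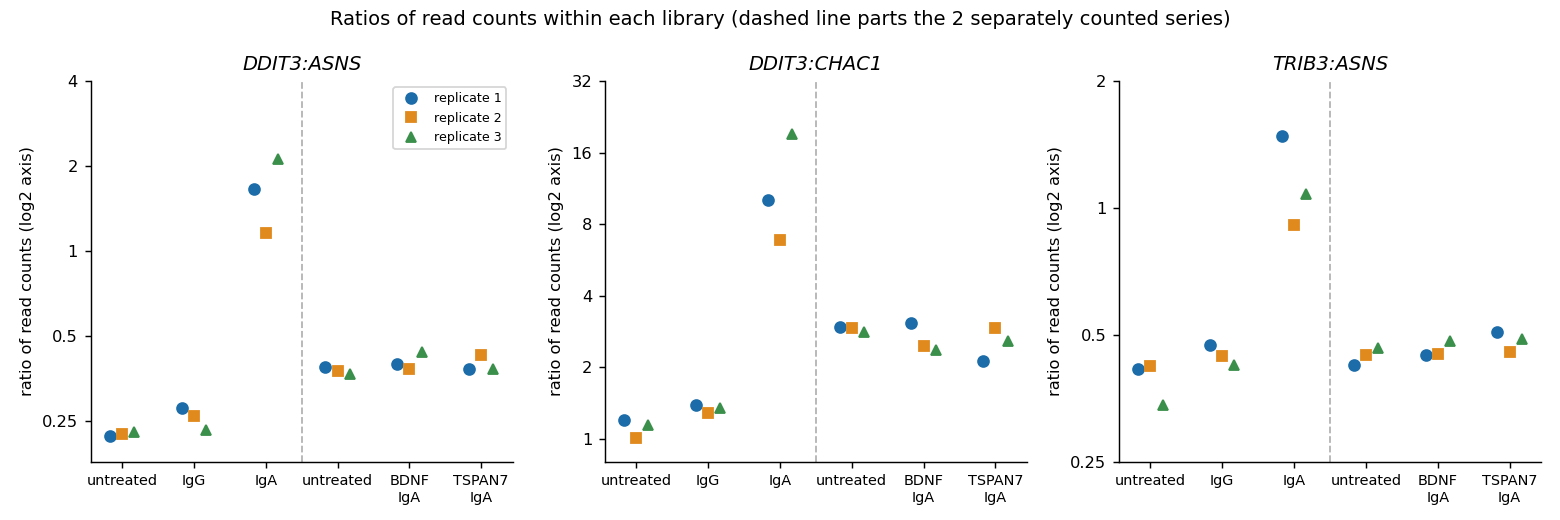
Ratios of the read counts of 2 genes within each library (vertical axes, log2 scale) for the 6 groups; symbols stand for replicates 1 to 3 and the dashed line parts the 2 series, which are not compared. DDIT3:ASNS is 1.16 to 2.12 with non-antigen-specific IgA and 0.223 to 0.278 in its controls, while in the second series all 9 libraries lie between 0.368 and 0.44.

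IgA against BDNF raised 6 of the 10 genes against its untreated cells, ATF4, DDIT3, TRIB3, CHAC1, ASNS and VLDLR, and lowered DDIT4. IgA against TSPAN7 raised ATF4, DDIT3, TRIB3, CHAC1, ASNS and SESN2 and lowered DDIT4. Of the 18732 genes tested, 4.49% were called higher and 3.18% lower with BDNF IgA, and 4.46% and 4.08% with TSPAN7 IgA. BDNF IgA libraries lay wholly above untreated cells for 8 of the 10 genes and under them for 1, and TSPAN7 IgA libraries for 7 and 1, where 12.8% and 12% of all genes did so with BDNF IgA and 14.4% and 14% with TSPAN7 IgA. Both comparisons use the same 3 untreated libraries. The differences were small, at most 1.48-fold. Libraries of a group varied less here. The common dispersion, edgeR's measure of that spread, was 0.00303 in this series and 0.0307 in the first. Smaller differences could thus be called here. For ATF4 the SE was 0.04 with either antibody and 0.12 with non-antigen-specific IgA against untreated cells. The interval of the latter, -0.19 to 0.27, includes the 0.15 and 0.18 found with BDNF and TSPAN7 IgA. Counts of calls thus do not compare the series.

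**Figure D4:**
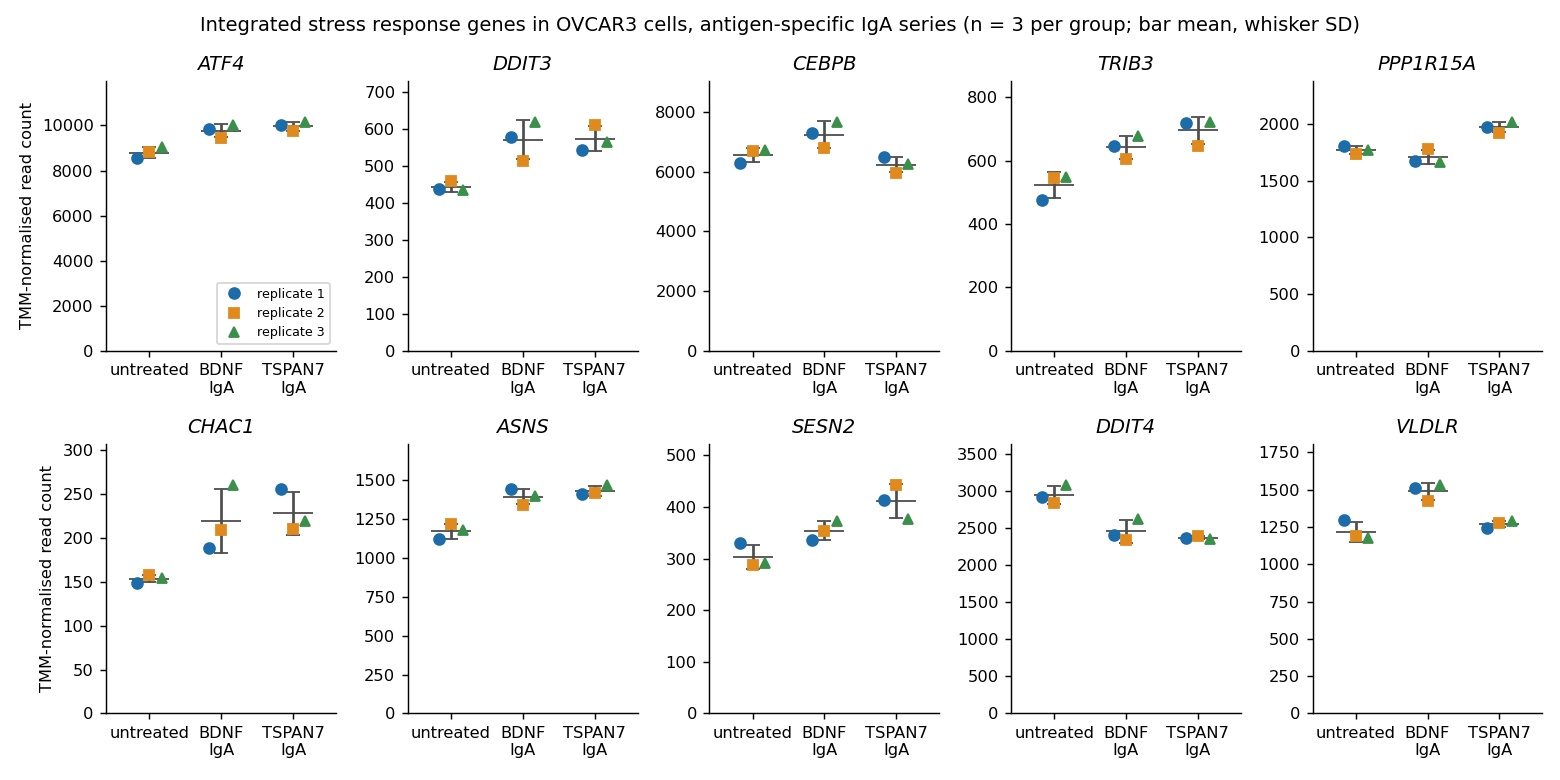
TMM-normalised read counts of the 10 genes (vertical axes, from 0) in the 9 libraries of the second series, untreated, BDNF IgA and TSPAN7 IgA on the horizontal axis; symbols stand for replicates 1 to 3, bars for the mean and whiskers for the SD. ATF4, DDIT3, TRIB3, CHAC1, ASNS and SESN2 are higher in every antibody library than in every untreated one, and DDIT4 is lower in every one.

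ATF4 had normalised read counts of 9848, 9445 and 10026 with BDNF IgA, 10016, 9749.6 and 10146 with TSPAN7 IgA and 8539.6, 8807 and 9038 in untreated cells. No antibody library reached down to the untreated ones. On the log2 scale the fold change was 0.15 ± 0.04 with BDNF IgA and 0.18 ± 0.04 with TSPAN7 IgA (edgeR, adjusted p = 0.0283 and 0.00855). The call with BDNF IgA was lost without BDNF IgA replicate 1 or 3 or untreated replicate 1 or 2 (adjusted p = 0.101, 0.124, 0.138 and 0.0922), and that with TSPAN7 IgA without untreated replicate 1 (0.0598).

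DDIT3 had 578, 513 and 618 normalised counts with BDNF IgA, 543, 610.3 and 565 with TSPAN7 IgA and 438, 459 and 433 in untreated cells. The untreated libraries lay together, all under the antibody libraries. The fitted log2 fold change was 0.36 ± 0.08 and 0.37 ± 0.08 (edgeR, adjusted p = 0.00924 and 0.0073). Without BDNF IgA replicate 3 the first adjusted p was 0.0703, and without TSPAN7 IgA replicate 2 the second was 0.0605. TRIB3 had 645, 605 and 678 normalised counts with BDNF IgA, 719, 646 and 721 with TSPAN7 IgA and 475, 545 and 547 in untreated cells, and it rose by 0.30 ± 0.08 and 0.41 ± 0.08 on the log2 scale (edgeR, adjusted p = 0.0239 and 0.00213), with no overlap. The TRIB3 call with BDNF IgA was lost without BDNF IgA replicate 1 or 3 or untreated replicate 1 (adjusted p = 0.0774, 0.116 and 0.135).

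CHAC1, one of the lowest of these genes per length, had 189, 209 and 260.4 normalised counts with BDNF IgA, 256, 209.7 and 219 with TSPAN7 IgA and 149, 158 and 154 in untreated cells. Its log2 fold changes were the largest of the 10 in this series, 0.51 ± 0.13 and 0.57 ± 0.13 (edgeR, adjusted p = 0.0191 and 0.00886). ASNS had 1443, 1343 and 1403 normalised counts with BDNF IgA, 1415, 1417 and 1471 with TSPAN7 IgA and 1121, 1218 and 1178 in untreated cells, a log2 fold change of 0.25 ± 0.06 with BDNF IgA and 0.29 ± 0.06 with TSPAN7 IgA (adjusted p = 0.00733 and 0.00215). Both genes lay above their untreated cells in all 6 antibody libraries. With BDNF IgA the CHAC1 call was lost without BDNF IgA replicate 3 (adjusted p = 0.157) or any 1 untreated library (0.0539 to 0.0743), and that of ASNS without BDNF IgA replicate 1 or untreated replicate 1 (0.0502 and 0.0524). With TSPAN7 IgA the CHAC1 call was lost without TSPAN7 IgA replicate 1 (0.0558).

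DDIT4 went the other way from these genes. Its normalised read counts were 2399.8, 2330.3 and 2626 with BDNF IgA, 2369.7, 2384 and 2353 with TSPAN7 IgA and 2916, 2835 and 3079 in untreated cells. All 6 antibody libraries lay under all 3 untreated ones. The log2 fold change was -0.26 ± 0.05 with BDNF IgA and -0.31 ± 0.05 with TSPAN7 IgA (edgeR, adjusted p = 0.00273 and 0.000451).

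SESN2, the other restraint on mTORC1, had 335, 354 and 374 normalised counts with BDNF IgA, 412, 443 and 377 with TSPAN7 IgA and 330.2, 288 and 291 in untreated cells. It rose by 0.44 ± 0.10 on the log2 scale with TSPAN7 IgA (edgeR, adjusted p = 0.00571) and was not called with BDNF IgA, at 0.23 ± 0.10 (adjusted p = 0.169), although no library overlapped. PPP1R15A, which had risen most with non-antigen-specific IgA against IgG, had 1675, 1780.0 and 1666 normalised counts with BDNF IgA, 1975, 1925 and 2017 with TSPAN7 IgA and 1805, 1733 and 1767 in untreated cells. It was called in neither comparison, at -0.05 ± 0.05 with BDNF IgA and 0.16 ± 0.05 with TSPAN7 IgA (edgeR, adjusted p = 0.62 and 0.0584). Without BDNF IgA replicate 2 in the shared fit PPP1R15A was called with TSPAN7 IgA (adjusted p = 0.0326), as it was with 6 libraries in the fit (0.0342) and with limma voom (0.0336).

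The DDIT3 to ASNS ratio was 0.401, 0.382 and 0.44 with BDNF IgA, 0.384, 0.431 and 0.384 with TSPAN7 IgA and 0.39, 0.377 and 0.368 in untreated cells. The groups overlapped (two-sided exact permutation p = 0.2 and 0.3). Both genes rose here and their ratio stayed within 1.08-fold and 1.05-fold of that in untreated cells.

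The count of genes raised by BDNF IgA depended on single libraries. It was 6 with all libraries, 2 without BDNF IgA replicate 3, 3 without BDNF IgA replicate 1, 2 without untreated replicate 1, and 0 with replicates 1 and 2 alone of each group. The corresponding count with TSPAN7 IgA stayed between 5 and 7 when any 1 library was left out, and was 6 with replicates 1 and 2 alone.

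The antibodies against BDNF and TSPAN7 were also set against each other. PPP1R15A was higher with TSPAN7 IgA by 0.21 ± 0.05 on the log2 scale, and VLDLR and CEBPB were lower, at -0.23 ± 0.06 and -0.22 ± 0.05 (edgeR, adjusted p = 0.0142, 0.0166 and 0.00907), where 3.42% of all genes were called higher and 4.5% lower. VLDLR had 1509.6, 1425 and 1532 normalised counts with BDNF IgA, 1245, 1275 and 1287 with TSPAN7 IgA and 1294, 1187 and 1173 in untreated cells, and CEBPB had 7293, 6790.2 and 7662 with BDNF IgA, 6479, 5965 and 6272 with TSPAN7 IgA and 6302, 6699 and 6723 in untreated cells. Both were highest with BDNF IgA, and against untreated cells VLDLR was called with BDNF IgA (0.29 ± 0.06, adjusted p = 0.00293) and CEBPB with neither antibody. The PPP1R15A call was lost without BDNF IgA replicate 1 or 3 or TSPAN7 IgA replicate 3 (adjusted p = 0.0784, 0.0812 and 0.0687). That of CEBPB was lost without BDNF IgA replicate 3 or TSPAN7 IgA replicate 2 (0.0706 and 0.0885), and that of VLDLR without BDNF IgA replicate 1 or 3 or TSPAN7 IgA replicate 1 or 2 (0.078, 0.0936, 0.0575 and 0.0718). Against untreated cells CEBPB was called with BDNF IgA without BDNF IgA replicate 2 (0.00753) and with limma voom (0.0179). The counts were 0 higher and 0 lower with replicates 1 and 2 alone. DDIT3 differed between the antibodies by 0.01, with a 95% interval of -0.15 to 0.17, and ATF4 by 0.03, with an interval of -0.05 to 0.11.

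Other genes of the pathway were grouped by function. Of the 4 eIF2alpha kinases, EIF2AK3 (PERK, the sensor of unfolded protein in the endoplasmic reticulum) rose by 0.95 ± 0.15 against IgG and 0.94 ± 0.14 against untreated cells with non-antigen-specific IgA, together with EIF2AK4 (GCN2, the sensor of amino acid shortage) at 0.56 ± 0.13 and 0.59 ± 0.13. EIF2AK2 (PKR, the sensor of double-stranded RNA) was not called there, at 0.14 and 0.10. With antigen-specific IgA, EIF2AK2 rose by 0.65 ± 0.04 with BDNF IgA and 0.68 ± 0.04 with TSPAN7 IgA (edgeR, adjusted p = 9.22e-10 and 5.24e-10). EIF2AK3 was called with TSPAN7 IgA, at 0.23 ± 0.06, and not with BDNF IgA, at 0.13 ± 0.06. The difference between the antibodies was 0.10 ± 0.06 and not called. The kinases called higher were 1 with BDNF IgA and 2 with TSPAN7 IgA, where 4.49% and 4.46% of all genes were. Without BDNF IgA replicate 2 the first count was 2, and without TSPAN7 IgA replicate 1 the second was 1. Whether a kinase protein was active was not measured. Of the 12 genes of eIF2, eIF2B and the phosphatase, PPP1CB alone was called with non-antigen-specific IgA and none with either antigen-specific IgA, where 12.6% of all genes were called higher against IgG. That count of 1 was 0 without IgG replicate 1 or 2, 2 without IgG replicate 3 or IgA replicate 1 and 5 without IgA replicate 3 against IgG, and 4 without IgA replicate 3 against untreated cells.

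Genes of the endoplasmic reticulum folding response, which ATF6 and XBP1 drive in parallel to ATF4, were called in most cases with non-antigen-specific IgA and in few or none with antigen-specific IgA. With non-antigen-specific IgA, edgeR called 12.6% of all genes higher against IgG and 12.9% against untreated cells. Of the 15 genes of this list, 13 rose against IgG and 14 against untreated cells, with a median log2 fold change of 0.96 and 0.97 where the median of all genes was -0.01 in each. Among them were HERPUD1, a part of the degradation machinery, at 2.62 ± 0.17 against IgG, the chaperone HSPA5 (BiP) at 2.47 ± 0.14, its cofactor SDF2L1 at 1.71 ± 0.19 and the secreted factor MANF at 1.56 ± 0.17. With BDNF IgA none of the 15 was called, with a median of 0.03, and with TSPAN7 IgA SDF2L1 alone was, at 0.23 ± 0.07, with a median of 0.07. These counts rested on single libraries. Without BDNF IgA replicate 2 they were 3 with BDNF IgA and 2 with TSPAN7 IgA, and without TSPAN7 IgA replicate 1 the latter was 0. Of all genes, 4.49% were called higher with BDNF IgA and 4.46% with TSPAN7 IgA. The difference between the series was not tested.

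The leucine zipper partners of ATF4 and CHOP that passed the filter were 6 of 7. With non-antigen-specific IgA, 3 of them rose: ATF3, a partner that follows ATF4, at 1.89 ± 0.25 against IgG and 1.91 ± 0.25 against untreated cells, CEBPD at 1.71 ± 0.23 and 1.87 ± 0.23, and NFE2L2, the oxidative stress factor NRF2, at 0.68 ± 0.10 and 0.71 ± 0.10. Of all genes, 12.6% were called higher against IgG and 12.9% against untreated cells. ATF3 rose by 0.82 ± 0.13 with TSPAN7 IgA and by 0.51 ± 0.13 from BDNF to TSPAN7 IgA, and was not called with BDNF IgA (0.31 ± 0.14). CEBPD fell by 0.22 with BDNF IgA. JDP2 rose by 0.19 ± 0.05 with BDNF IgA and by 0.18 ± 0.05 with TSPAN7 IgA. In these comparisons 4.49% of all genes were called higher and 3.18% lower with BDNF IgA, and 4.46% and 4.08% with TSPAN7 IgA. Without BDNF IgA replicate 1 this list had 0 higher and 0 lower with BDNF IgA, and without TSPAN7 IgA replicate 1 it had 1 higher with TSPAN7 IgA. ATF5 had log2 fold changes between -0.10 and 0.05 in the 4 comparisons against IgG or untreated cells, and CEBPG between 0.00 and 0.28, and neither was called.

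Amino acid genes were called in both directions with non-antigen-specific IgA, in shares not far from the 12.6% of all genes called higher and 11.6% called lower against IgG. Of 12 genes of amino acid and one-carbon synthesis, 3 rose and 2 fell against IgG: CTH, which makes cysteine, had 0.74 ± 0.16 and ALDH18A1, of proline synthesis, 0.45 ± 0.11, against -0.73 ± 0.20 for CBS and -0.58 ± 0.18 for PSPH, the last step of serine synthesis. Their median was -0.24. The count of 2 lower was 0 without IgA replicate 1 or IgG replicate 3, 1 without IgA replicate 3 or IgG replicate 2 and 3 without IgA replicate 2. Of 10 transporters 2 rose, SLC3A2 at 0.68 ± 0.14 and SLC38A2 at 0.63 ± 0.13, and SLC38A1 fell, at -0.45 ± 0.12, a call lost without IgG replicate 3. Of 13 genes of aminoacyl-tRNA synthesis and export 2 rose, YARS and WARS, at 0.56 ± 0.12 and 0.46 ± 0.11, a count that became 1 when IgG replicate 2 was left out and 4 when IgG replicate 3 was.

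With TSPAN7 IgA every called gene of these 3 lists was higher, by small amounts, where 4.46% of all genes were called higher and 4.08% lower. Of the 13 aminoacyl-tRNA genes 6 rose, among them GARS at 0.21 ± 0.05 and AARS at 0.21 ± 0.05, and of the 10 transporters 4 rose, led by SLC7A5 at 0.57 ± 0.09 and its heavy chain SLC3A2 at 0.35 ± 0.06. MTHFD2, of mitochondrial folate metabolism, rose by 0.22 ± 0.05 and CBS by 0.21 ± 0.06. The 4 transporters became 2 when TSPAN7 IgA replicate 2 was left out. The count of aminoacyl-tRNA genes rested on single libraries, being 1 without TSPAN7 IgA replicate 2, 2 without TSPAN7 IgA replicate 3 or untreated replicate 3, and 0 with replicates 1 and 2 alone. With BDNF IgA 0 of the 13, 1 of the 10 transporters (SLC38A2, 0.26 ± 0.06) and 2 of the 12 synthesis genes (CBS, 0.33 ± 0.06, and ALDH1L2, 0.33 ± 0.09) rose, where 4.49% of all genes were called higher. SLC7A5 and SLC7A1 were higher with TSPAN7 than with BDNF IgA, by 0.48 ± 0.09 and 0.31 ± 0.05.

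**Figure D5:**
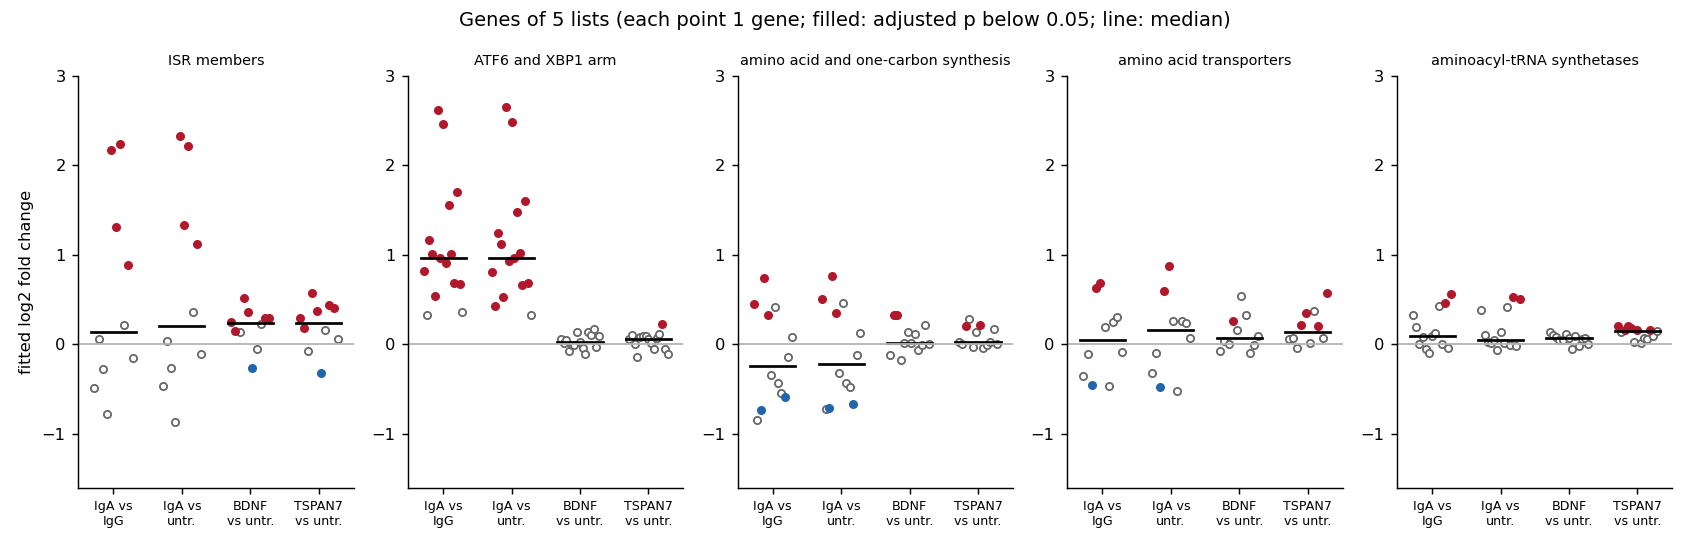
Fitted log2 fold changes (vertical axes, 1 scale) of the 10 genes and of 4 lists around them in 4 comparisons; each point is 1 gene, filled where the adjusted p was under 0.05, and lines are medians. The ATF6 and XBP1 arm has a median of 0.96 and 0.97 with non-antigen-specific IgA and of 0.03 and 0.07 with BDNF and TSPAN7 IgA, while the median of the 10 genes is 0.14, 0.20, 0.24 and 0.24.

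Among downstream effectors of prolonged stress, 6 of 15 rose and 2 fell with non-antigen-specific IgA against untreated cells, where 12.9% and 12.1% of all genes did so. Against IgG 6 rose and 3 fell, where 12.6% and 11.6% of all genes did so. The 3 lower against IgG became 1 without IgA replicate 1. The secreted stress hormone GDF15 had 3.85 ± 0.46, and the death genes BBC3 (PUMA) and PMAIP1 (NOXA) 1.99 ± 0.26 and 1.47 ± 0.17, while BCL2L11 (BIM), a death gene that CHOP is known to induce, fell by 1.06. GDF15 also rose with BDNF IgA, by 0.94 ± 0.23 (edgeR, adjusted p = 0.0153). The effectors called higher with BDNF IgA were 3, and 1 without BDNF IgA replicate 3, where 4.49% of all genes were called higher with all libraries. With TSPAN7 IgA 4 effectors were called higher and 1 lower, where 4.46% and 4.08% of all genes were. The 4 higher became 1 without TSPAN7 IgA replicate 3, and the 1 lower became 3 without BDNF IgA replicate 2 in the shared fit. With antigen-specific IgA, PMAIP1 rose by 0.35 ± 0.06 with BDNF IgA and 0.42 ± 0.06 with TSPAN7 IgA, and INHBE, an activin subunit that follows ATF4, by 0.66 ± 0.19 and 0.67 ± 0.19. SESN3, a sestrin under the control of FOXO factors, fell by 0.38 and 0.41 with the same antibodies, against SESN2, which was higher or not called.

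The median log2 fold change of the 10 genes was 0.14 with non-antigen-specific IgA against IgG and 0.20 against untreated cells, 0.24 with BDNF IgA and 0.24 with TSPAN7 IgA, where the medians of all genes tested lay between -0.01 and 0.00. Across the 4 fold changes against untreated cells, and over 17548 genes tested in both series, the genes most like DDIT3 were MT2A, LIF and NFKBIE, with root mean square differences of 0.0891, 0.103 and 0.108 on the log2 scale. Those most like ATF4 were ZFAND5, LAPTM4B and IRS2, at 0.0168, 0.0194 and 0.0233. The 4 fold changes share untreated libraries within each series.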

How the data were processed

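The 18 OVCAR3 RNA libraries were sequenced as paired-end reads. The authors trimmed reads with cutadapt 1.8.1, mapped them to GRCh37 (STAR) and, per gene, counted the reads that mapped to 1 place. The methods name featureCounts as the counter and the submitters' processing notes HTSeq 0.6.1. The values deposited by the authors are raw counts per gene, with no normalization; strandedness was not stated. Of 57820 rows of the second table, 2055 repeated another row exactly and were dropped. Each series was fitted on its 9 libraries with edgeR 4.0.16 in R 4.3.3 (TMM, filterByExpr, quasi-likelihood F test, two-sided, Benjamini-Hochberg adjustment over all genes tested, calls at an adjusted p under 0.05). Intervals are the estimate ± 1.96 SE. A normalised count is a count after TMM scaling of all libraries of a series to one size, the mean of their effective sizes. No molecular identifiers were used, so counting error was not taken as the error, and all errors rest on replicates. Fits were first tested on simulated counts. The 10 genes, the lists, the tests and the rule for named genes were chosen with earlier results of these data known. The rule named all 10 genes, ATF3, ATF5, EIF2AK2, EIF2AK3, CEBPG and PPP1R15B, and up to 4 genes of a list and comparison with the largest changes among those called, with 50 or more normalised counts on average in 1 group and groups that did not overlap; a comparison's named genes may be given beside other comparisons. Positions and transcript lengths are from GENCODE 44 lifted to GRCh37. Alternatives are given in the closing section, with DESeq2 1.42.0 and limma 3.58.1 among them.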

Additional observations from a re-analysis of the deposited data

Results flagged for a closer look

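DDIT4 and CHAC1 lay wholly to one side of untreated cells with non-antigen-specific IgA and wholly to the other side with both antigen-specific IgAs, and CEBPB did so with BDNF IgA but not with TSPAN7 IgA, where the groups overlapped. DDIT4 had a log2 fold change of 1.33 with non-antigen-specific IgA, of -0.26 with BDNF IgA and of -0.31 with TSPAN7 IgA, and all 3 values were called. CHAC1 had -0.87 with non-antigen-specific IgA, which was not called, and 0.51 with BDNF IgA and 0.57 with TSPAN7 IgA, which were. CEBPB had -0.26 with non-antigen-specific IgA and 0.14 with BDNF IgA, and neither was called. Library size scaling called the first (adjusted p = 0.0127), and limma voom the second (0.0179). Each value is against the untreated cells of its own series, and the difference between the series was not tested.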

How the results depend on the processing

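Alternatives were DESeq2, scaling by DESeq2's size factors or by library size, no filter on low counts, no mitochondrial or ribosomal RNA genes, 6 libraries in the fit, limma voom with sample weights, a replicate block, and leaving out each replicate. Using replicates 1 and 2 alone was chosen after seeing the data. DDIT3, PPP1R15A and DDIT4 kept their calls with non-antigen-specific IgA, and DDIT4 with antigen-specific IgA, under all of these. TRIB3 against IgG was lost with DESeq2 (adjusted p = 0.0877), library size scaling (0.0913) and 6 libraries in the fit (0.0504), and ATF4 with BDNF IgA in the last (0.0514). PPP1R15A with TSPAN7 IgA was gained with 6 libraries in the fit (0.0342) and limma voom (0.0336), CEBPB with BDNF IgA with limma voom (0.0179), and CEBPB lower with IgA under library size scaling (0.00872 against IgG and 0.0127 against untreated cells).

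The count of the 10 genes called lower with IgA was 1 against IgG and 2 against untreated cells under library size scaling (CEBPB, and CHAC1 against untreated cells), and 2 in each without a filter (ASNS and CHAC1). With replicates 1 and 2 alone, 0 were higher with BDNF IgA, and 0 higher and 0 lower between TSPAN7 and BDNF IgA. Leaving out 1 library gave 0 to 1 lower with IgA against untreated cells, 2 to 7 higher with BDNF IgA, and 0 to 1 higher and 0 to 2 lower between TSPAN7 and BDNF IgA. With limma voom 4 genes of the ATF6 and XBP1 list were called higher with BDNF IgA, where edgeR called 0.

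Library size scaling moved the median over all genes, on the log2 scale, to -0.25 against IgG and -0.22 against untreated cells. It turned ATF4 to -0.17 in each and to 0.0074 for IgG against untreated cells, SESN2 to -0.0043 against IgG, and DDIT3 to -0.0069 between TSPAN7 and BDNF IgA. Replicates 1 and 2 alone turned ASNS to 0.12 against IgG and 0.044 against untreated cells, and VLDLR to 0.019 and 0.055. For IgG against untreated cells they turned ASNS to -0.077, DDIT4 to -0.054 and CEBPB to -0.035, and DDIT4 between TSPAN7 and BDNF IgA to 0.0067. limma voom turned ASNS to -0.13, DDIT4 to -0.11 and CEBPB to -0.019 for IgG against untreated cells.

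Leaving out 1 library, ATF4 ran from -0.029 to 0.17 against IgG and from -0.039 to 0.13 against untreated cells, and VLDLR from -0.24 to 0.019 against untreated cells. Between IgG and untreated cells the ranges were -0.13 to 0.067 for ATF4, -0.20 to 0.55 for DDIT3, -0.44 to 0.27 for CHAC1, -0.18 to 0.47 for TRIB3, -0.45 to 0.39 for ASNS, -0.17 to 0.45 for SESN2, -0.37 to 0.33 for DDIT4, -0.14 to 0.13 for PPP1R15A, -0.082 to 0.17 for VLDLR and -0.080 to 0.057 for CEBPB. Between TSPAN7 and BDNF IgA they were -0.041 to 0.20 for CHAC1, -0.061 to 0.070 for DDIT3 and -0.084 to 0.0028 for DDIT4. The cause of these changes was not tested.

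Deviations of same-numbered libraries from their group means correlated at -0.069 to 0.25 (first series) and -0.017 to 0.089 (second series). Those of differently numbered libraries correlated at -0.21 to 0.14 and -0.077 to 0.053. The highest value, 0.25, was that of IgG replicate 3 with untreated replicate 3. The samples were not treated as paired in the main fit, and these values do not settle whether the numbers mark pairs. The replicate block changed no call of the 10 genes, turned ASNS for IgG against untreated cells to -0.0019, and moved the aminoacyl-tRNA genes called higher with IgA from 2 to 4.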
